A study of Homo sapiens with 36 samples.

Results

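The genes described here are 10 histone demethylases and related hydroxylases of the Jumonji family: KDM2A, KDM2B, KDM3A, KDM3B, KDM4A, KDM4B, KDM4C, KDM5B, KDM6B and JMJD6. They were chosen by name, as 10 of the 60591 genes in the table of mRNA read counts, with earlier results of these data known. Every 1 of them was listed there and passed the filter on low counts in both cell lines. The mRNA was measured in 18 libraries of 2 human colorectal adenocarcinoma cell lines, Caco-2 and HT-29, in 6 groups of 3 replicates. Caco-2 cells had been kept under differentiation conditions for 21 days before treatment, whereas for HT-29 no such period was given, so the line and its culture state cannot be told apart. Each line was incubated for 24 h with cobalt(II) chloride (CoCl2) at 300 µM, with an oxyquinoline derivative (OD, labelled Oxy) at 5 µM, or with neither. Control cells received 0.5 µl of DMSO per ml of medium, the amount that also carried OD. The CoCl2 stock was made in water, and for Caco-2 the study's methods say that the CoCl2 medium received DMSO too. For HT-29 this was not stated. No library came from cells kept under low oxygen. The study names the Caco-2 replicates biological, but nothing states that they came from separately grown cultures, so the p-values measure the spread between these samples.

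Jumonji enzymes carry an iron atom in the active site and use molecular oxygen and alpha-ketoglutarate to oxidise a methyl group on a protein, which then falls off. The HIF prolyl hydroxylases, which mark the hypoxia-inducible factor HIF for destruction, belong to the same wide group of dioxygenases. CoCl2 is thought to act on them by disturbing their iron, and OD was made as an inhibitor of HIF prolyl hydroxylase. Several Jumonji genes, KDM3A foremost, are known targets of HIF, so that their mRNA can rise while the enzymes themselves lack oxygen or iron. Only mRNA was measured in these libraries, and neither the activity of the enzymes nor any histone mark was.

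Total counts per library ran from 12925719 to 22332639. The epithelial identity of the cells was checked against 10 enterocyte and intestinal markers. In Caco-2 these genes summed to 2282 to 2357 CPM in control, to 2432 to 2488 CPM after CoCl2 and to 2746 to 2930 CPM after OD. In HT-29 the sums were 1039 to 1066 CPM for control, 1415 to 1429 CPM for CoCl2 and 1488 to 1657 CPM for OD (CPM is a read count relative to library size, scaled within a line by TMM). In HT-29, 2 of the 7 markers tested rose and 5 fell with CoCl2 (median log2 fold change -0.70), and 3 rose and 4 fell with OD (median -0.65). VIL1, SI, FABP1 and CDX2 fell there with both agents, VIL1 by 2.62 and 1.15, while KRT20 rose with both (1.23 and 1.39). The largest rise of a marker in HT-29 was that of CEACAM5 after OD, 2.95 with library size alone. After CoCl2 CEACAM5 fell there by 0.91 in that scaling. Its Caco-2 values, scaled likewise, were 1.43 for OD and -0.12 for CoCl2. In Caco-2, 4 of 10 rose and 5 fell with CoCl2, and 5 rose and 1 fell with OD. Of all genes tested in Caco-2, 31.6% rose and 33.1% fell with CoCl2, and 25.7% and 24.7% did with OD. The shares in HT-29 were 40.7% and 42.2% with CoCl2 and 34.7% and 34% with OD. In HT-29 the enterocyte genes ALPI and APOA4 were at 0.1028 CPM or less in every group mean. Of 9 mesenchymal, immune and endothelial markers, COL1A2, DCN and PTPRC stayed under 0.1 CPM in every group mean. COL1A1, COL3A1, PECAM1 and VWF passed the filter on low counts in Caco-2, and COL1A1 and PECAM1 did in HT-29. The summed level of those 9 genes was 33.7 to 40.6 CPM in Caco-2 control, 19.5 to 22.9 with CoCl2 and 22.6 to 27.9 with OD. In HT-29 it was 2.89 to 3.94 CPM in control, 2.69 to 4.01 with CoCl2 and 6.26 to 7.45 with OD. PECAM1, VWF and COL1A1 were lower with both agents in Caco-2, whereas in HT-29 PECAM1 was lower and COL1A1 higher. These markers moved with the treatments, and their part in the results below was not tested. Of 5 HIF target genes used as a readout (SLC2A1, PDK1, VEGFA, BNIP3, EGLN3), 5 rose more than 2-fold after CoCl2 and 4 after OD in Caco-2, while in HT-29 there were 4 after CoCl2 and 1 (BNIP3) after OD, which was under 2-fold (0.88) with library size alone. Replicate 1 of Caco-2 CoCl2, replicate 1 of Caco-2 OD and replicate 3 of HT-29 control differed more from the other libraries of their group than those did from each other. The chi-square per degree of freedom between pairs of counts was 8.79 to 12.6 where a pair held either Caco-2 library, against 3.42 and 3.43 for the other pair, and 5.00 and 6.10 against 1.99 in HT-29 control. Values without these 3 libraries are given where they change a result.

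Fold changes and adjusted p-values (FDR, Benjamini-Hochberg over all genes tested) come from edgeR's quasi-likelihood test. A gene is said to rise or fall at an FDR under 0.05, and is said to pass 2-fold where its log2 fold change was also beyond 1 in size. In bulk RNA, a change in the number of cells of a kind and a change in the RNA per cell cannot be told apart. The plot of CPM by library shows all 10 genes.

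**Figure D1:**
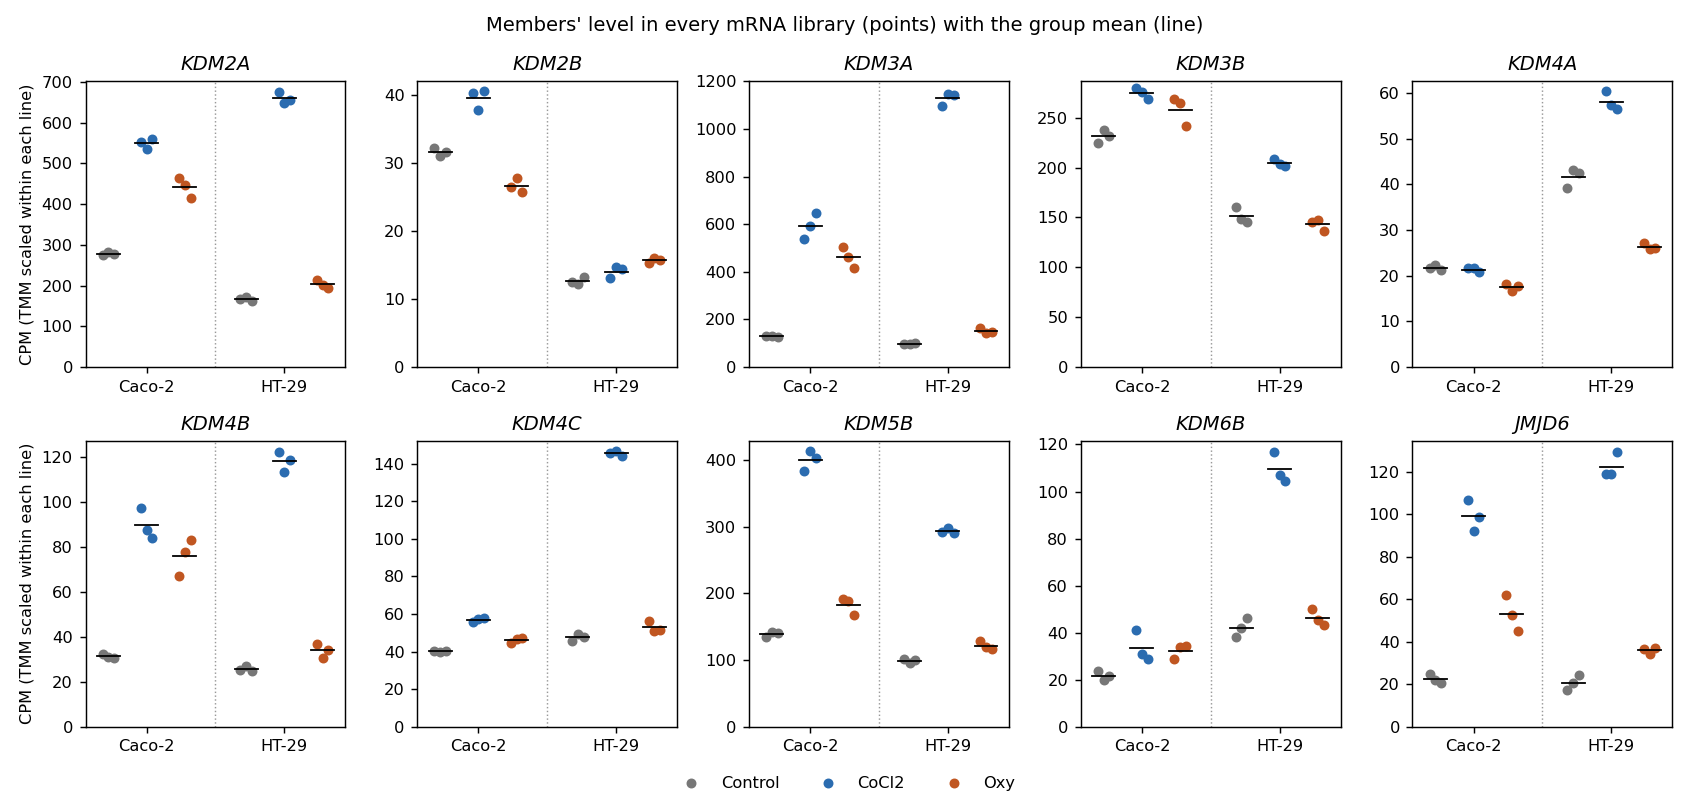
Level of each of the 10 genes in every mRNA library, as CPM with TMM scaling within each line (linear axis from 0; points are libraries, short lines are means of 3). KDM3A reached 1095 to 1149 CPM with CoCl2 in HT-29 against 95.5 to 99.5 in control, while KDM2B, KDM3B and KDM4A did not pass 2-fold against control with either agent.

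KDM3A removes mono- and dimethyl marks from lysine 9 of histone H3 and is a textbook HIF target. It lies on chromosome 2 (GRCh38, chr2:86440647-86492716, plus strand) and overlaps no other annotated gene. In Caco-2 its level was 132, 132 and 126 CPM in control, 539, 593 and 649 CPM with CoCl2, and 506, 463 and 415 CPM with OD. In HT-29 it was 95.5, 96.1 and 99.5 CPM in control, 1095, 1149 and 1143 CPM with CoCl2, and 164, 143 and 146 CPM with OD. In both lines every treated library lay above every control library, and every CoCl2 library above every OD library. KDM3A rose 4.56-fold in CoCl2-treated Caco-2 (log2 fold change 2.19, SE 0.0851, FDR = 9.78e-17) and 11.6-fold in HT-29 (3.54 ± 0.0539, FDR = 2.35e-27). With OD it rose 3.54-fold in Caco-2 (1.82 ± 0.0843, FDR = 8.59e-15) and 1.56-fold in HT-29 (0.64 ± 0.0518, FDR = 2.4e-11). KDM3A was also on a list that the study drew up from differentiated Caco-2, as used here, and undifferentiated Caco-2. Its direction in Caco-2 is therefore not independent evidence.

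The core letters of the hypoxia response element, ACGTG and GCGTG, were searched on both strands of the promoters in RefSeq's GRCh38.p14 table, each 300 bases long. At least 1 of these strings occurred in 48.4% of all 35116 promoters, ACGTG in 21.4% and GCGTG in 36.5%. A CACGTG reads as ACGTG on both strands and was counted once per strand. Promoters were given for 9 of the 10 genes, 15 in all, and 12 of the 15 held at least 1 match. Matches were found in genes of strong and of weak response: the KDM4C promoter held 5, the KDM4B promoter 4, each of the 4 KDM2B promoters 1 or 3, the KDM4A promoter 1 and 1 of the 2 KDM6B promoters 1. KDM3A had 2 overlapping promoters with the same single match, shown here because KDM3A had the highest log2 fold change of the 10 genes in 3 of the 4 comparisons against control, all but OD in HT-29. It lies at chr2:86441333-86441361 on the plus strand, 26 bases before the first and 116 before the second RefSeq start site, within an exon of another KDM3A transcript model in GENCODE. The match is in capitals.
KDM3A: ccgggaggctgtGCGTGtcttgtgagagc

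KDM3B, a paralogue of KDM3A that acts on the same marks, lies on chromosome 5 (chr5:138352685-138437028, plus strand). It had the highest level per length of the 10 genes in both controls. In Caco-2 it was at 225, 238 and 231 CPM in control, 280, 276 and 269 with CoCl2, and 269, 264 and 241 with OD. In HT-29 it was at 161, 148 and 145 CPM in control, 208, 204 and 202 with CoCl2, and 146, 148 and 136 with OD. The CoCl2 libraries lay above the controls in both lines, whereas the OD and control libraries of HT-29 overlapped. KDM3B rose 1.19-fold with CoCl2 in Caco-2 (log2 fold change 0.25 ± 0.0699, FDR = 0.00327) and 1.35-fold in HT-29 (0.43 ± 0.0498, FDR = 9.01e-09). Both directions depended on TMM scaling. With library size alone the values were -0.07 in Caco-2 (FDR = 0.329) and -0.20 in HT-29 (FDR = 0.00068). With OD it gave 0.16 in Caco-2 (FDR = 0.0623) and -0.08 in HT-29 (FDR = 0.164) and did not pass the test in either line. The Caco-2 value passed with DESeq2 (0.16, FDR = 0.0352) and without OD replicate 3 (0.21, FDR = 0.0243), and with library size alone KDM3B fell in HT-29 (-0.21, FDR = 0.000445). The single KDM3B promoter held neither string, and its 250 bases before the start site (chr5:138352435-138352684, plus strand) are shown beside that of KDM3A for this reason.
KDM3B: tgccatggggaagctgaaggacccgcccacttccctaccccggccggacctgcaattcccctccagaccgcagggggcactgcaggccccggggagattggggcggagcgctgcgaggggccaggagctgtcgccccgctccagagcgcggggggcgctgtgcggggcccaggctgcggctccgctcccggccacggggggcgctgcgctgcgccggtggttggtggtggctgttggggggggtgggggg

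The KDM4 enzymes remove trimethyl marks from lysines 9 and 36 of histone H3. KDM4B (chr19:4969113-5153598, plus strand) was at 32.5, 31.3 and 30.4 CPM in Caco-2 control, 97.3, 87.8 and 84.2 with CoCl2, and 67.3, 77.6 and 83.3 with OD. HT-29 libraries gave 25.3, 27.01 and 24.8 CPM in control, 123, 114 and 119 with CoCl2, and 36.8, 30.8 and 34.4 with OD. All treated libraries lay above the controls of their line. KDM4B rose 2.85-fold with CoCl2 (log2 fold change 1.51 ± 0.0907, FDR = 4.57e-13) and 2.42-fold with OD (1.28 ± 0.0907, FDR = 3.33e-11) in Caco-2. In HT-29 it rose 4.61-fold with CoCl2 (2.204 ± 0.0613, FDR = 7.21e-22) and 1.33-fold with OD (0.41 ± 0.0664, FDR = 5.54e-06), and all 4 calls held with library size alone. Its single promoter held 4 matches, all in the 250 bases before the start site (chr19:4968863-4969112, plus strand), where the longer run in capitals is a CACGTG counted on both strands.
KDM4B: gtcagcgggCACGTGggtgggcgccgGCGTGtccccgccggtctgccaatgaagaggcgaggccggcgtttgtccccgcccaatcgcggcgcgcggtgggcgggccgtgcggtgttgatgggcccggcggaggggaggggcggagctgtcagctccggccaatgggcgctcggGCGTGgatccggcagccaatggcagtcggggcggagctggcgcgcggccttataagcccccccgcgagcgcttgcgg

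KDM4C (chr9:6720863-7175648, plus strand) was at 40.5, 39.8 and 40.4 CPM in Caco-2 control, 55.8, 57.4 and 57.7 with CoCl2, and 44.6, 46.7 and 47.3 with OD. Its levels in HT-29 were 45.9, 49.1 and 47.9 CPM in control, 146, 147 and 144 with CoCl2, and 56.2, 51.2 and 51.6 with OD. The CoCl2 libraries of HT-29 stood far above all others. KDM4C rose 1.42-fold with CoCl2 in Caco-2 (log2 fold change 0.50 ± 0.0795, FDR = 6.63e-06) and 3.06-fold in HT-29 (1.61 ± 0.0510, FDR = 1.18e-20). The OD values were smaller, 0.20 ± 0.0801 in Caco-2 (FDR = 0.0429) and 0.15 ± 0.0532 in HT-29 (FDR = 0.0126), and passed the test only narrowly. The call was lost under library size scaling for both OD values, with an FDR of 0.662 for Caco-2 cells and 0.773 for HT-29 cells. The CoCl2 call of Caco-2 was lost as well (0.18, FDR = 0.0507). In Caco-2 the OD call was also lost without any 1 of 5 of the 6 libraries compared (FDR up to 0.107), the exception being OD replicate 1. In HT-29 it was lost without control replicate 1 (FDR = 0.0609) or OD replicate 1 (FDR = 0.122).

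KDM4A (chr1:43650149-43705518, plus strand) was the only 1 of these 3 genes that fell with OD. It was at 21.6, 22.4 and 21.3 CPM in Caco-2 control, 21.7, 21.6 and 20.7 with CoCl2, and 18.2, 16.7 and 17.6 with OD. In the HT-29 line, levels were 39.2, 43.1 and 42.4 CPM in control, 60.4, 57.3 and 56.5 with CoCl2, and 27.2, 25.8 and 26.0 with OD. The OD libraries were the lowest in both lines, with no overlap with the controls. KDM4A fell with OD, by 0.31 on the log2 scale in Caco-2 (SE 0.103, FDR = 0.0139) and by 0.66 in HT-29 (SE 0.0598, FDR = 2.19e-10). The fall in Caco-2 did not pass without control replicate 2 (FDR = 0.0533), without OD replicate 2 (FDR = 0.0712) or without a filter on low counts (FDR = 0.0766). With CoCl2 the log2 fold change was -0.03 in Caco-2 (95% interval -0.23 to 0.17, FDR = 0.805), or -0.35 (FDR = 0.00404) with library size alone. KDM4A rose with CoCl2 in HT-29 (0.48 ± 0.0566, FDR = 1.62e-08), which turned to -0.15 (FDR = 0.0145) with library size alone. Another protein-coding gene model on the same strand shares 40.2% of the exon bases of KDM4A, and KDM4A-AS1, on the opposite strand, shares 9.12%. How reads there were assigned was not stated, so the KDM4A counts are uncertain to that extent.

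KDM2A and KDM2B remove methyl marks from lysine 36 of histone H3 and bind unmethylated CpG islands through a CXXC zinc finger. KDM2B brings a variant Polycomb complex, PRC1.1, to such islands. KDM2A (chr11:67119263-67258082, plus strand) was at 275, 283 and 277 CPM in Caco-2 control, 553, 536 and 560 with CoCl2, and 464, 446 and 416 with OD. In HT-29 it was at 167, 172 and 162 CPM in control, 676, 648 and 655 with CoCl2, and 214, 200 and 195 with OD. As for KDM3A, the 3 groups of each line did not overlap and CoCl2 was highest. KDM2A rose 1.98-fold with CoCl2 in Caco-2 (log2 fold change 0.98 ± 0.0699, FDR = 1.11e-11), just short of 2-fold, and 3.95-fold in HT-29 (1.98 ± 0.0476, FDR = 3.05e-23). With OD it rose 1.59-fold in Caco-2 (0.67 ± 0.0697, FDR = 2.56e-08) and 1.22-fold in HT-29 (0.28 ± 0.0471, FDR = 7.24e-06). A lncRNA model on the opposite strand shares 6.54% of its exon bases. One of its 2 promoters held 3 matches, all GCGTG or its reverse complement, within the stretch chr11:67119013-67119262 on the plus strand.
KDM2A: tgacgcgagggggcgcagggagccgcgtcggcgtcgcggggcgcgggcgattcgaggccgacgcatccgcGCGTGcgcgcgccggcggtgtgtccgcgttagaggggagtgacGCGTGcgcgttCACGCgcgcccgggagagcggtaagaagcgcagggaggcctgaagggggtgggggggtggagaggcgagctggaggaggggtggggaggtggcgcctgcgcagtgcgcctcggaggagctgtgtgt

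KDM2B (chr12:121429096-121581023, minus strand) was at 32.3, 31.0 and 31.7 CPM in Caco-2 control, 40.3, 37.9 and 40.7 with CoCl2, and 26.4, 27.9 and 25.8 with OD. HT-29 libraries gave 12.5, 12.2 and 13.3 CPM in control, 13.1, 14.7 and 14.4 with CoCl2, and 15.4, 16.1 and 15.8 with OD. In Caco-2 the groups were thus ordered OD, control, CoCl2 without overlap, whereas in HT-29 the OD group was highest. KDM2B rose with CoCl2 in Caco-2 (log2 fold change 0.32 ± 0.0883, FDR = 0.00261), a call lost with library size alone (0.00, FDR = 0.986). In HT-29 its value with CoCl2 was 0.14 (95% interval -0.03 to 0.32, FDR = 0.137), and it turned to -0.49 (FDR = 1.69e-05) with library size alone. With OD it fell by 0.25 in Caco-2 (SE 0.0902, FDR = 0.0265) and rose by 0.31 in HT-29 (SE 0.0829, FDR = 0.00186), the latter not with library size alone (0.17, FDR = 0.071). The fall in Caco-2 did not pass without control replicate 1, control replicate 3 or OD replicate 3 (FDR = 0.0868, 0.071 and 0.0888). Without a filter on low counts it did not pass either (FDR = 0.152). RNF34 and KDM2B-DT, both on the opposite strand, share 3.22% and 1.70% of its exon bases.

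KDM5B removes di- and trimethyl marks from lysine 4 of histone H3, a mark of active promoters, and lies on chromosome 1 (chr1:202724495-202808487, minus strand). In Caco-2 it was at 135, 142 and 140 CPM in control, 384, 414 and 403 with CoCl2, and 191, 188 and 168 with OD. Its levels in HT-29 were 101, 95.8 and 100.5 CPM in control, 292, 298 and 290 with CoCl2, and 128, 119 and 116 with OD. Its rise with CoCl2 was 2.88-fold in Caco-2 (log2 fold change 1.53 ± 0.0736, FDR = 6.79e-15) and 2.96-fold in HT-29 (1.56 ± 0.0493, FDR = 1.05e-20). With OD it rose 1.31-fold (0.39 ± 0.0730, FDR = 8.83e-05) and 1.22-fold (0.29 ± 0.0496, FDR = 1.14e-05). Its single promoter held 1 match, shown with its flanks at chr1:202808469-202808497 on the minus strand, 64 bases before the start site.
KDM5B: cggaggcgcacgGCGTGggcttgcggcga

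KDM6B removes di- and trimethyl marks from lysine 27 of histone H3, the mark written by Polycomb complex PRC2, and lies on chromosome 17 (chr17:7834217-7854796, plus strand). In Caco-2 it was at 23.7, 19.9 and 21.5 CPM in control, 40.9, 31.0 and 29.0 with CoCl2, and 28.8, 33.9 and 34.2 with OD. In the HT-29 line, levels were 38.1, 41.8 and 46.3 CPM in control, 117, 107 and 104 with CoCl2, and 50.0, 45.4 and 43.0 with OD. The highest Caco-2 library was replicate 1 of CoCl2, 1 of the 3 that stood apart, and the OD and CoCl2 libraries of Caco-2 overlapped. KDM6B rose 1.54-fold with CoCl2 (log2 fold change 0.62 ± 0.120, FDR = 7.82e-05) and 1.49-fold with OD (0.57 ± 0.120, FDR = 0.00033) in Caco-2. In HT-29 it rose 2.58-fold with CoCl2 (1.37 ± 0.0652, FDR = 1.01e-16), while OD gave 0.12 (95% interval -0.01 to 0.26, FDR = 0.106). That OD value passed the test without control replicate 3 (0.20, FDR = 0.013) or without OD replicate 3 (0.18, FDR = 0.0439).

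JMJD6 is a nuclear Jumonji enzyme that hydroxylates lysines of splicing factors and has been described as an arginine demethylase. It lies on chromosome 17 as well (chr17:76712832-76726799, minus strand). In Caco-2 it was at 24.7, 21.8 and 20.8 CPM in control, 107, 92.1 and 98.5 with CoCl2, and 62.1, 52.4 and 44.9 with OD. In HT-29 it was at 17.3, 20.6 and 24.1 CPM in control, 119, 119 and 129 with CoCl2, and 36.4, 34.3 and 36.9 with OD. The groups did not overlap within a line. JMJD6 rose 4.41-fold with CoCl2 (log2 fold change 2.14 ± 0.106, FDR = 1.2e-14) and 2.37-fold with OD (1.24 ± 0.107, FDR = 1.08e-09) in Caco-2, and 5.81-fold (2.54 ± 0.0735, FDR = 1.68e-21) and 1.71-fold (0.77 ± 0.0792, FDR = 2.49e-09) in HT-29. It was the gene of the 10 with the largest OD response in HT-29 and came second to KDM3A with CoCl2 in both lines.

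**Figure D2:**
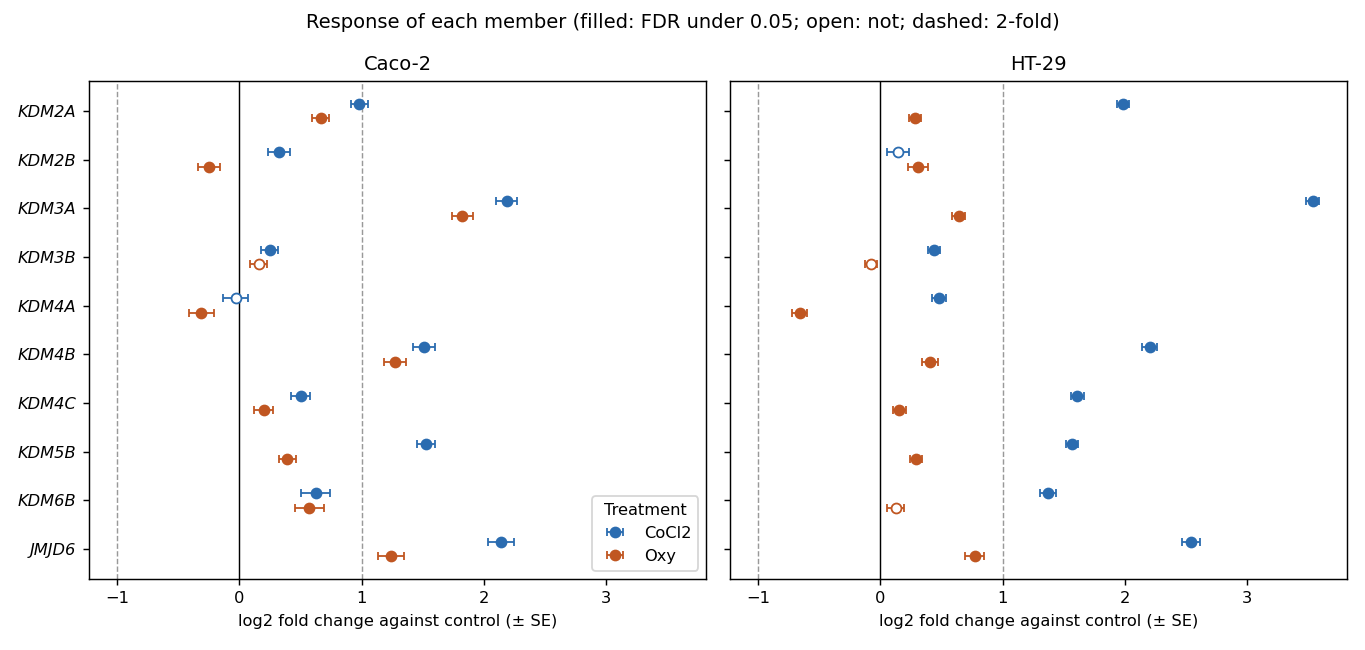
Log2 fold change of each of the 10 genes against control (points; bars are ± SE) with CoCl2 and OD (Oxy) in Caco-2 and HT-29, n = 3 libraries per group. With CoCl2 the values ran from -0.03 to 2.19 in Caco-2 and from 0.14 to 3.54 in HT-29, and with OD no gene passed 2-fold in HT-29.

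Counted together, 9 of the 10 genes rose with CoCl2 in Caco-2 and 0 fell, where 31.6% of all genes tested rose and 33.1% fell. With OD in Caco-2, 7 rose and 2 fell (KDM2B, KDM4A), against 25.7% and 24.7% of all genes. In HT-29, 9 rose and 0 fell with CoCl2, against 40.7% and 42.2%, and 7 rose and 1 fell (KDM4A) with OD, against 34.7% and 34%. Past 2-fold upward were 4 genes with CoCl2 in Caco-2 (KDM3A, KDM4B, KDM5B, JMJD6; background 9.13%), 3 with OD (KDM3A, KDM4B, JMJD6; background 4.43%) and 7 with CoCl2 in HT-29 (all but KDM2B, KDM3B and KDM4A; background 17.4%). With OD in HT-29 none of the 10 passed 2-fold, by edgeR or by DESeq2, where 9.5% of all genes did so upward, although 8 of the 10 had an FDR, and the same number an unadjusted p, under 0.05. None passed 2-fold downward, where 14.2%, 7.27%, 23.9% and 7.57% of all genes did in the same order of comparisons. The median log2 fold change of the 10 genes was 0.80, 0.48, 1.59 and 0.29, beside -0.03, -0.02, -0.03 and 0.01 over all genes tested. The comparisons of a line share its controls, and the 10 genes were chosen with earlier results of these data known.

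These counts rest on TMM scaling, since the factors differed between groups: 1.19 to 1.20 in HT-29 control against 0.765 to 0.774 with CoCl2. With library size alone the median over all genes moved to -0.35 in Caco-2 and -0.66 in HT-29 with CoCl2, and to -0.18 and -0.13 with OD. The next counts are of genes past 2-fold upward, out of those past 2-fold in either direction. In that scaling they were 870 of 4416 in place of 1464 of 3747 with CoCl2 in Caco-2. With OD in Caco-2 they were 500 of 2144 in place of 711 of 1876. With CoCl2 in HT-29 they were 1295 of 7545 in place of 2749 of 6524. With OD in HT-29 they were 1225 of 2821 in place of 1502 of 2699. At an FDR under 0.05 in either direction, library size alone gave 10911 genes with CoCl2 and 8385 with OD, of 16034 tested in Caco-2. In HT-29 it gave 13477 and 11092 of 15812. Of the 10 genes, 6 rose and 1 fell with CoCl2 and 6 rose and 2 fell with OD in Caco-2 in that scaling, and 7 rose and 3 fell with CoCl2 and 5 rose and 2 fell with OD in HT-29. The median of the 10 became 0.48, 0.33, 0.95 and 0.15 in the same order. The number of the 10 genes past 2-fold stayed at 4 and 3 in Caco-2 and went from 7 to 4 with CoCl2 in HT-29. KDM3A, KDM4B and JMJD6 passed 2-fold with both agents in Caco-2 and with CoCl2 in HT-29 in either scaling.

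The agents were then compared with each other. In Caco-2, 8 of the 10 genes were higher with CoCl2 than with OD at an FDR under 0.05 (24.4% of all genes were higher, 25.2% lower), but 1, KDM5B, passed 2-fold (background 5.21%). KDM5B was 2.19-fold higher with CoCl2 (log2 difference 1.13 ± 0.0727, FDR = 7.1e-12). JMJD6 came next with 0.90 ± 0.0992 (FDR = 6.37e-08), and passed 2-fold with 1.03 when OD replicate 1 was left out. KDM3A and KDM4B differed less between the agents in Caco-2, by 0.36 (95% interval 0.21 to 0.52, FDR = 0.000593) and 0.24 (0.07 to 0.41, FDR = 0.0244). The KDM4B difference was 0.11 (FDR = 0.249) without the 2 Caco-2 libraries that stood apart, and it did not pass without either of them alone (FDR = 0.093 without CoCl2 replicate 1, 0.105 without OD replicate 1). The differences of KDM3B (0.09, 95% interval -0.05 to 0.23, FDR = 0.291) and KDM6B (0.05, -0.18 to 0.28, FDR = 0.744) did not pass the test. Under library size scaling KDM4A, KDM4B and KDM4C no longer differed at that limit (FDR = 0.356, 0.562 and 0.159), KDM5B was under 2-fold, and the values of KDM3B and KDM6B turned below 0.

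In HT-29, 9 of the 10 genes were higher with CoCl2 than with OD (37.1% of all genes were higher, 40.6% lower), and 8 of them passed 2-fold (background 10.8%). KDM3A was 7.46-fold higher with CoCl2 than with OD (log2 difference 2.90 ± 0.0521, FDR = 2.51e-25). KDM4B, JMJD6 and KDM2A followed with 1.80, 1.77 and 1.70 (FDR = 7.19e-20, 2.73e-18 and 1.44e-21). KDM4C, KDM5B, KDM6B and KDM4A lay between 1.14 and 1.46. KDM2B alone had a value below 0, -0.17 (95% interval -0.34 to 0.01, FDR = 0.0852). In this pair of groups the genes past 2-fold numbered 4 with library size alone, where KDM3B did not pass the test (0.02, FDR = 0.772) and KDM2B was lower with CoCl2 (-0.66, FDR = 1.37e-07).

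Whether a response differed between the lines was tested as an interaction over all 18 libraries. For CoCl2, 7 of the 10 genes differed at an FDR under 0.05 (background 49.8%), 6 with a higher value in HT-29 and KDM2B with a lower one. KDM3A rose 2.37-fold more in HT-29 than in Caco-2 (log2 difference 1.24 ± 0.102, FDR = 2.53e-12), and KDM4C 2.00-fold more (1.00 ± 0.0899, FDR = 2.33e-11). These were the 2 beyond 2-fold (background 21.6%), and KDM4C sat at the threshold, from 0.97 to 1.02 as single libraries were left out. KDM2A, KDM6B, KDM4B and KDM4A differed by 0.89, 0.64, 0.58 and 0.40. KDM5B did not pass, with -0.07 (95% interval -0.24 to 0.10, FDR = 0.547). Scaled by library size only, KDM5B passed with -0.27 (FDR = 0.00515) and KDM4A did not (0.20, FDR = 0.111). In this joint scaling the median over all genes was -0.13, and it was 0.05 without the 3 libraries that stood apart. Without them, 4 genes lay beyond 2-fold (KDM2A, KDM3A, KDM4C, KDM6B, from 1.04 to 1.36), JMJD6 and KDM3B passed the test (0.65, FDR = 7.19e-06 and 0.22, FDR = 0.0171) and KDM2B did not (-0.07, FDR = 0.689).

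For OD, 8 of the 10 genes differed between the lines (background 42.9%), 7 with a lower value in HT-29. KDM3A was the only one beyond 2-fold (background 15.2%), 2.30-fold less in HT-29 (log2 difference -1.20 ± 0.103, FDR = 1.27e-11). KDM4B followed with -0.89 ± 0.117 (FDR = 1.22e-07). JMJD6, KDM6B, KDM2A, KDM4A and KDM3B lay between -0.48 and -0.25. The JMJD6 value was -0.19 (FDR = 0.237) without the 3 libraries that stood apart. KDM2B was the exception with 0.54 ± 0.117 (FDR = 0.000301), having fallen with OD in Caco-2 and risen in HT-29. The differences of KDM4C (-0.06, 95% interval -0.24 to 0.12, FDR = 0.641) and KDM5B (-0.12, -0.29 to 0.05, FDR = 0.287) did not pass. The CoCl2 and OD differences use the same controls of both lines.

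**Figure D3:**
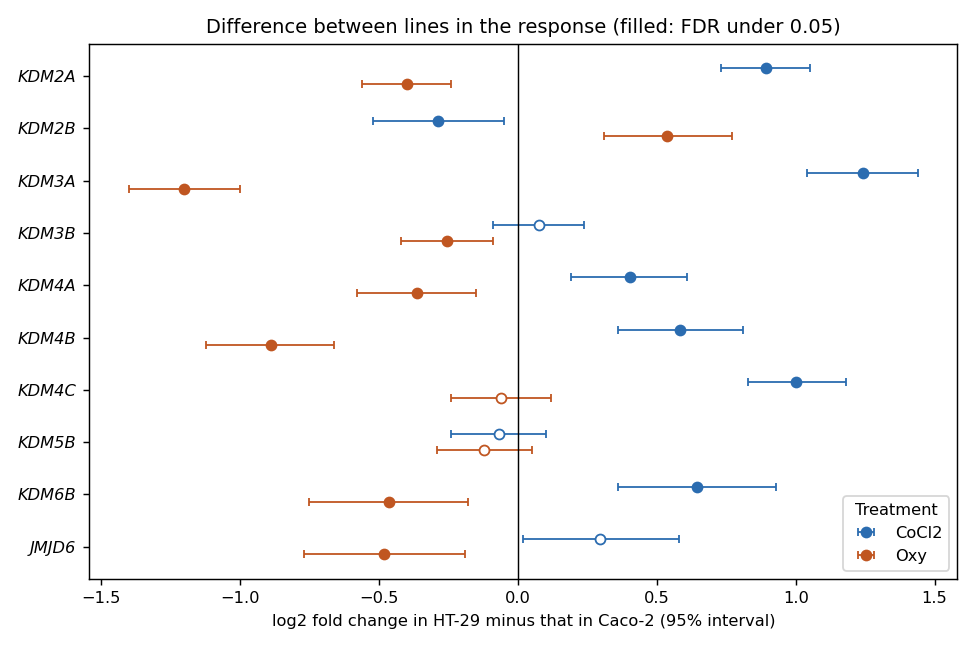
Log2 fold change against control in HT-29 minus that in Caco-2, for each of the 10 genes (points; bars are 95% intervals; filled where the FDR was under 0.05). KDM3A lay at 1.24 with CoCl2 and at -1.20 with OD (Oxy), whereas the KDM5B intervals covered 0 with both.

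Between the untreated lines 9 of the 10 genes differed at an FDR under 0.05, in a comparison where 79.1% of all genes did, and 3 differed beyond 2-fold (background 45.8%). KDM2B was 2.34-fold lower in HT-29 (log2 difference -1.23 ± 0.0828, FDR = 2.41e-15), while KDM4A (1.03 ± 0.0749, FDR = 1.91e-14) and KDM6B (1.05 ± 0.104, FDR = 4.46e-11) were higher. KDM4A and KDM6B were close to the limit and fell just under 2-fold without the libraries that stood apart (0.98 and 0.94). KDM3A was 1.26-fold lower in HT-29 control (-0.33 ± 0.0736, FDR = 0.000122). KDM4B was at -0.20 (FDR = 0.0325). It did not pass in 4 of 6 fits that left out 1 library (FDR up to 0.111) or without a filter on low counts (FDR = 0.0971). JMJD6 was at -0.01 (95% interval -0.23 to 0.20, FDR = 0.924).

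With all 18 libraries on 1 scale, KDM3A was ordered from low to high as HT-29 control (101 CPM), Caco-2 control (128), HT-29 OD (157), Caco-2 OD (454), Caco-2 CoCl2 (583) and HT-29 CoCl2 (1095), and no neighbours overlapped. HT-29 with CoCl2 was also the highest of the 6 groups for KDM2A, KDM4A, KDM4B, KDM4C, KDM6B and JMJD6. KDM2B, KDM3B and KDM5B were highest in Caco-2 with CoCl2. Neighbours overlapped for KDM4B between Caco-2 control and HT-29 OD, for KDM5B between HT-29 OD and Caco-2 control, for KDM4C between HT-29 OD and Caco-2 CoCl2, and for JMJD6 between the 2 controls. They also overlapped for KDM2B between HT-29 control and HT-29 CoCl2, for KDM3B between Caco-2 OD and Caco-2 CoCl2, and for KDM4A between Caco-2 CoCl2 and Caco-2 control. KDM6B overlapped in every pair of neighbours from Caco-2 OD up to HT-29 OD.

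Levels of different genes were compared per length, as RPKM (read counts relative to gene length and library size) recovered from the log2 values the authors deposited. The order depends on the gene length used in them, and no other length was tried. Merged over all transcript models, the exons span 24899 bases for KDM5B, 14719 for KDM4B, 13299 for KDM3A and 7872 for KDM3B. In Caco-2 control KDM3B was highest at 30 ± 0.807 RPKM (SD, n = 3), followed by KDM2A at 27.4 ± 0.418 and KDM3A at 9.99 ± 0.271. KDM2B at 2.37 ± 0.0491 and KDM4B at 2.18 ± 0.0763 were lowest. In HT-29 control the order began with KDM3B (19.8 ± 1.07) and KDM2A (16.6 ± 0.495), then KDM4A (8.27 ± 0.419) and KDM3A (7.52 ± 0.163), and ended with KDM4B (1.80 ± 0.0839) and KDM2B (0.958 ± 0.0407). In these 2 control groups the neighbours whose libraries overlapped were KDM4C and JMJD6 in Caco-2 and KDM5B and JMJD6 in HT-29. CoCl2 changed the order: in HT-29 KDM3A became the highest of the 10 at 82.1 ± 2.08 RPKM, above KDM2A at 61.5 ± 1.46 and KDM3B at 25.1 ± 0.424. In Caco-2 with CoCl2 KDM2A was highest at 52.6 ± 1.25, then KDM3A at 44.3 ± 3.98 and KDM3B at 34.7 ± 0.757.

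**Figure D4:**
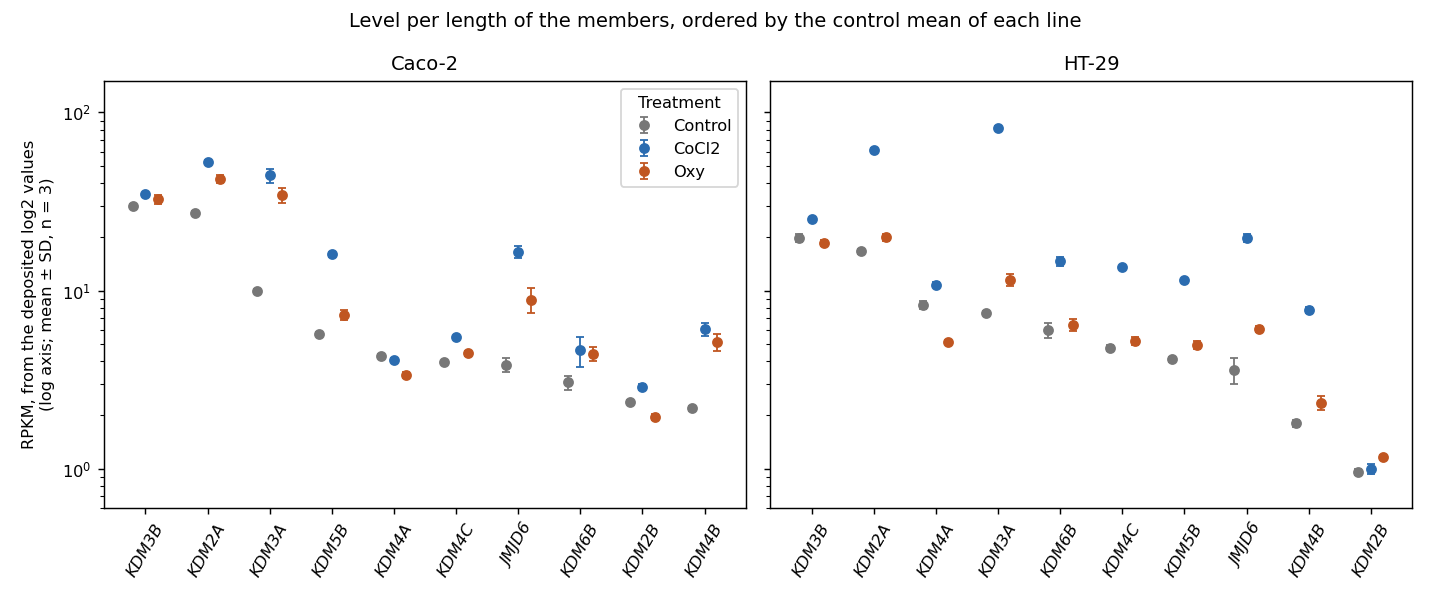
RPKM of the 10 genes on a log axis (points are means, bars ± SD, n = 3), ordered in each line by the control mean, with the scale set separately in each line. KDM3A rose from 7.52 in HT-29 control to 82.1 with CoCl2, while KDM2B stayed between 0.958 and 1.17 in that line.

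Likeness to KDM3A was described by Pearson's r of log2 CPM over the 18 libraries after each line's mean was removed, among 8234 genes with a mean of at least 10 CPM in each line. The points share libraries, depth and the 3 treatments. Of the 10 genes, KDM2A (r = 0.989, rank 8) and KDM4B (r = 0.988, rank 10) were nearest. JMJD6 (0.963, rank 174), KDM6B (0.944, rank 361) and KDM4C (0.938, rank 413) came after. KDM3B (0.901) and KDM5B (0.897) were at ranks 854 and 906, so many other genes were as near. KDM4A (0.449) and KDM2B (0.016) were far from it. The 5 nearest of all genes were C4orf3, CAMSAP1, NPEPPS, PFKFB4 and LASP1, with r from 0.991 to 0.992. PFKFB4, which sets the level of a glycolysis regulator, had log2 fold changes of 3.97 and 3.28 for CoCl2 and OD in Caco-2, and of 5.48 and 1.35 in HT-29.

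The other Jumonji-domain genes moved in both directions, as genes at large did. Of 20 such genes listed, 17 were tested in each line. With CoCl2 in Caco-2, 7 rose and 6 fell (median log2 fold change 0.01), against 31.6% and 33.1% of all genes. With OD in Caco-2, 6 rose and 6 fell (median -0.01), against 25.7% and 24.7%. In HT-29, 6 rose and 9 fell with CoCl2 (median -0.30), against 40.7% and 42.2%. With OD there, 4 rose and 8 fell (median -0.14), against 34.7% and 34%. Scaled by library size, the numbers that rose and fell were 5 and 9, 5 and 7, 5 and 11, and 3 and 11. The gene past 2-fold in most comparisons was KDM8, a hydroxylase of the family that was also on the list the study drew from Caco-2. KDM8 was low, at 3.67 to 6.17 CPM in Caco-2 control and 2.52 to 3.55 CPM in HT-29 control, and fell with both agents in both lines, by 1.36 and 1.04 in Caco-2 (FDR = 0.000114 and 0.00175) and by 1.58 and 1.23 in HT-29 (FDR = 1.27e-06 and 1.03e-05). JMJD4, which hydroxylates a translation termination factor, fell by 1.63 and 2.13 with CoCl2 in Caco-2 and HT-29 (FDR = 1.21e-07 and 1.22e-10). HR, a corepressor, was tested in HT-29 alone, where its level was 1.98 ± 0.120 CPM (SD, n = 3) in control, and it fell by 3.25 with CoCl2 (FDR = 2.87e-08), a value that rests on a mean count of 2.67 per CoCl2 library, and by 1.39 with OD (FDR = 5.44e-05). In the other direction, KDM7A passed 2-fold with CoCl2 in both lines (1.25 and 1.29), and JMJD1C, KDM6A and KDM5C did in HT-29. With library size alone KDM7A was under 2-fold in both (0.93 and 0.66), as was JMJD1C (0.81), whereas KDM6A (1.15) and KDM5C stayed past it. These 4 are named after their values were seen.

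**Figure D5:**
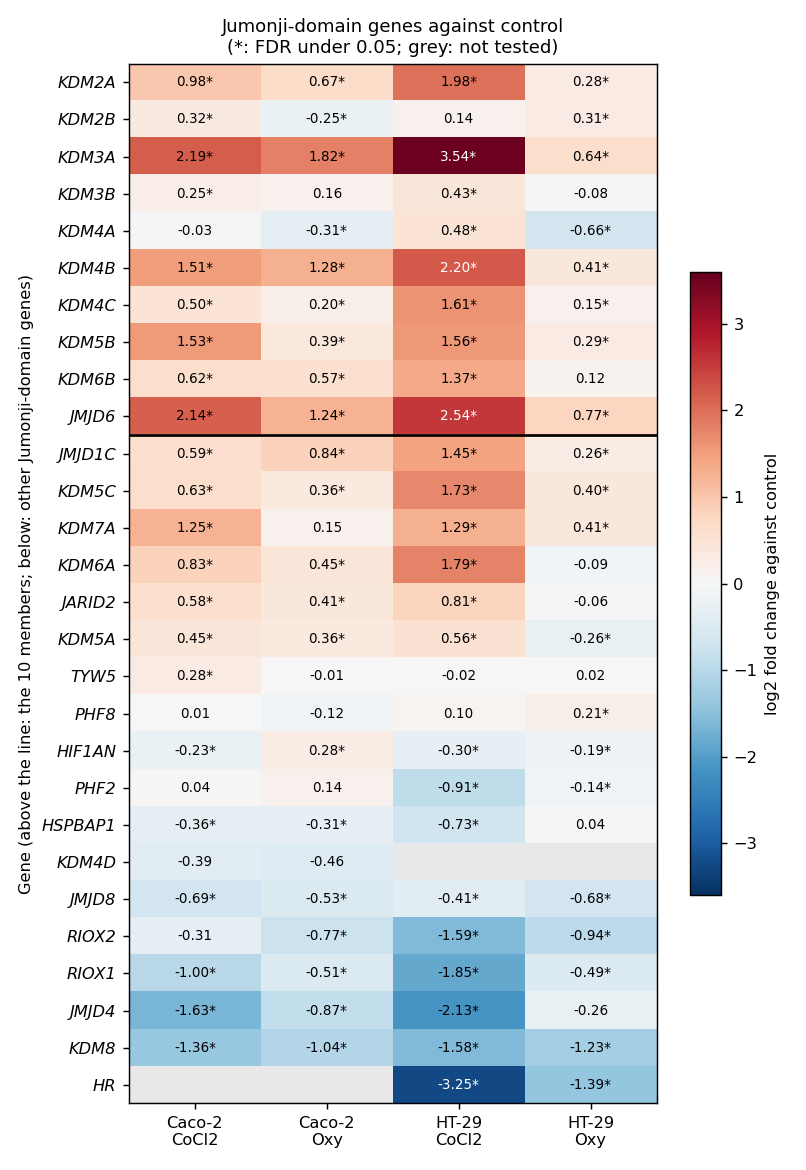
Log2 fold change against control (numbers and colour; * marks an FDR under 0.05) of the 10 genes, above the line, and of the other Jumonji-domain genes tested, below it. KDM3A reached 3.54 with CoCl2 in HT-29, and HR was lowest with -3.25.

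The enzymes that write or erase the same marks by other means were taken from lists of genes. The 2 flavin-dependent demethylases, which use no iron, did not pass the test in Caco-2 with either agent. In HT-29 KDM1A rose with CoCl2 (1.05, FDR = 2.88e-16) and KDM1B fell. Scaled by library size, both fell in Caco-2 with either agent, and KDM1A in HT-29 was at 0.42. Of 6 H3K4 methyltransferases 2 rose with CoCl2 in Caco-2 and 5 in HT-29, where KMT2C (1.67, FDR = 3.96e-22) and KMT2D (1.28, FDR = 2.66e-19) passed 2-fold. Of 6 H3K9 methyltransferases, which oppose KDM3 and KDM4 enzymes, 2 rose and 2 fell with CoCl2 in Caco-2. In HT-29, 1 rose and 3 fell, and SUV39H2 fell past 2-fold, by 1.58 (FDR = 2.12e-13). Of 4 PRC2 genes, which oppose KDM6B, 3 rose with CoCl2 in Caco-2 and 2 in HT-29, where EZH1 reached 1.05 (FDR = 3.84e-15). Of 5 H3K36 methyltransferases, NSD1 fell with both agents in both lines, by 0.93 and 0.86 in Caco-2 and by 1.80 and 0.85 in HT-29. Of those 5, 1 rose and 1 fell with CoCl2 in Caco-2, and 3 rose and 2 fell in HT-29. With library size alone KMT2D (0.65) and EZH1 (0.41) were under 2-fold with CoCl2 in HT-29, and KMT2C was not (1.03). None of these writers passed 2-fold with OD, although with library size alone SETDB2 (-1.02, FDR = 1.18e-06) and NSD1 (-1.01, FDR = 7.27e-09) did in Caco-2. The numbers that rose and fell with OD in Caco-2 were 4 and 0 for H3K4, 1 and 2 for H3K9, 2 and 1 for PRC2 and 4 and 1 for H3K36. For OD in HT-29 they were 2 and 2, 1 and 2, 1 and 0, and 1 and 3. Scaled by library size, fewer H3K9 and PRC2 writers rose with CoCl2. With CoCl2 in Caco-2 the H3K9 group had 0 risen and 4 fallen and the PRC2 group 1 and 1, and in HT-29 the H3K9 group had 0 and 6 and the PRC2 group 1 and 3. In Caco-2 the H3K4 group then had 1 and 3 and the H3K36 group 0 and 4, and the H3K36 group in HT-29 had 1 and 4. With OD in that scaling the H3K4, H3K9, PRC2 and H3K36 groups had 3 and 0, 1 and 5, 1 and 1, and 3 and 1 in Caco-2, and 2 and 4, 0 and 4, 1 and 3, and 1 and 4 in HT-29. With CoCl2 the H3K4 group in HT-29 kept its counts of 5 and 1, although its median fell from 0.87 to 0.24. The TET enzymes, dioxygenases that oxidise methylcytosine, were tested as 3 genes in Caco-2 and 2 in HT-29. TET1 and TET2 rose past 2-fold with CoCl2 in Caco-2 (1.20 and 1.12, FDR = 1.42e-10 and 7.48e-10), or by 0.88 and 0.80 with library size alone, while TET3 fell. In HT-29, 1 TET gene rose and 1 fell with CoCl2. With OD, 2 rose and 0 fell in Caco-2, and 0 rose and 2 fell in HT-29.

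Of 9 partners of KDM2B in PRC1.1, 8 rose and 1 fell with CoCl2 in Caco-2, none past 2-fold, against 31.6% and 33.1% of all genes. In HT-29, 6 rose and 3 fell, against 40.7% and 42.2%. SKP1 passed 2-fold there (1.38, FDR = 9.73e-19), but not with library size alone (0.74). With OD, 3 rose and 0 fell in Caco-2, against 25.7% and 24.7%, and 3 rose and 3 fell in HT-29, against 34.7% and 34%. These counts depended on the scaling: with library size alone 1 rose and 1 fell with CoCl2 in Caco-2, and 2 rose and 4 fell in HT-29. With OD, 2 rose and 2 fell in Caco-2, and 0 rose and 3 fell in HT-29.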

How the data were processed

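mRNA was read in 18 libraries, 9 per cell line. Per the submitters' processing notes and the study's methods, reads were checked with FastQC 0.11.9, trimmed with cutadapt 2.10 and aligned with STAR 2.7.5b to GRCh38.p13 with GENCODE release 34. The notes also name edgeR 3.30.3, with no role given. The library kit was stranded, but the counting tool and its use of strand are not given in the sources used here. The deposited mRNA tables hold unnormalised counts for each gene and, separately, log2 values by the authors, which behaved as log2 of RPKM plus 1: RPKM over CPM was nearly constant for a gene (median CV 0.013 in Caco-2 and 0.0285 in HT-29). The miRNA files were not used here.

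Counts were fitted per line over 9 libraries with edgeR 4.0.16 in R 4.3.3 (filterByExpr, TMM, 1 coefficient per group, quasi-likelihood F test, two-sided, Benjamini-Hochberg adjustment over 16034 genes in Caco-2 and 15812 in HT-29). Interactions and the comparison of controls used 1 fit over all 18 libraries and 17921 genes. The study's tool, DESeq2 (1.42.0 here), library size scaling, no filter, limma-trend (3.58.1) on the deposited log2 values, a replicate block and leaving out each library were alternatives. Leaving out 3 libraries together, and scaling the gene lists by library size, were added after seeing the data. Standard errors are the log2 fold change over the root of F, and intervals are 1.96 standard errors to each side. The fit was tested on simulated data. CPM and RPKM are from the counts and from the deposited log2 values. Gene positions are from GENCODE release 44 on GRCh38, which was not the release of the counts. Same-numbered replicates did not deviate together (r from -0.037 to 0.052 in Caco-2 and from -0.024 to 0.035 in HT-29).

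All 10 genes were described. From each list up to 3 genes were named, those past 2-fold in most comparisons against control, with ties broken by the mean size of the log2 fold change. The 5 genes most like KDM3A were named. The genes and lists were chosen with earlier results of these data known. Y-linked family members were left out of the lists. No count column was left without a sample.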

Additional observations from a re-analysis of the deposited data

Results flagged for a closer look

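For 7 of the 10 genes the response to CoCl2 differed between the lines by the interaction test (FDR under 0.05), as for 49.8% of all genes tested. It is given as the log2 fold change in HT-29 minus that in Caco-2. The values were 0.89 for KDM2A, -0.29 for KDM2B, 1.24 for KDM3A, 0.40 for KDM4A, 0.58 for KDM4B, 1.00 for KDM4C and 0.64 for KDM6B. The KDM2B difference was the weakest (FDR = 0.045) and did not pass with DESeq2 (FDR = 0.244), without a filter (FDR = 0.142) or in 7 of 12 fits that left out 1 library (FDR up to 0.14, without HT-29 CoCl2 replicate 1). It did not pass without any 1 of the 3 Caco-2 controls, Caco-2 CoCl2 replicate 1 or 3, HT-29 control replicate 3 or HT-29 CoCl2 replicate 1.

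For 8 of the 10 genes the response to OD differed between the lines by the same test, as for 42.9% of all genes tested. The values were -0.40 for KDM2A, 0.54 for KDM2B, -1.20 for KDM3A, -0.25 for KDM3B, -0.36 for KDM4A, -0.89 for KDM4B, -0.46 for KDM6B and -0.48 for JMJD6. KDM2B was the gene that fell with OD in Caco-2 and rose in HT-29. The JMJD6 difference did not pass without HT-29 control replicate 3 (-0.34, FDR = 0.0713). Differences between the lines cannot be told apart from differences in culture state.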

How the results depend on the processing

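Of 1170 recomputed log2 fold changes of the 10 genes, 1077 kept their direction and their side of the FDR limit, 59 lost the call, 17 gained it and 17 turned. Most of these values came from leaving out 1 library, with 620, 30, 5 and 5 in the same order. Library size alone changed more of its values, with 68, 10, 4 and 8.

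With library size alone KDM3B turned to -0.0715 for CoCl2 and -0.0754 for CoCl2 against OD in Caco-2, to -0.20 for CoCl2 in HT-29 and to -0.13 in the difference between lines. KDM6B turned to -0.12 for CoCl2 against OD in Caco-2 and to -0.0118 for OD in HT-29, and KDM2B and KDM4A to -0.49 and -0.15 for CoCl2 in HT-29. With DESeq2 the KDM5B difference between lines with CoCl2 turned to 0.0363, and to 0.0747 without the libraries that stood apart. Without a filter JMJD6 between the controls was at 0.0123. KDM6B for CoCl2 against OD in Caco-2 ran from -0.1089 to 0.1516 as single libraries were left out (-0.18 without those that stood apart), and JMJD6 between the controls from -0.1523 to 0.1056. These values did not pass the test in the main comparison, apart from KDM3B with CoCl2 in both lines and KDM4A with CoCl2 in HT-29. The cause was not tested beyond the change of scale itself.

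Without the 2-fold limit the counts were 9, 9 and 8 in Caco-2 (CoCl2, OD, CoCl2 against OD), 8 for OD in HT-29, and 7, 8 and 9 for the line differences with CoCl2 and OD and the controls. With library size alone and no such limit they were 5 for CoCl2 against OD in Caco-2, 10 for CoCl2 and 9 for CoCl2 against OD in HT-29. The line difference with CoCl2 then had 7. All counts that follow keep the 2-fold limit. With library size alone they were 0 for CoCl2 against OD in Caco-2, and 4 for CoCl2 and 4 for CoCl2 against OD in HT-29. The count was 1 for the line difference with CoCl2, and it was 1 without a filter too. Without the 3 libraries that stood apart that count was 4 and the count between controls 1, as with DESeq2 (1). As single libraries were left out, the count was 1 to 2 for CoCl2 against OD in Caco-2 (2 without OD replicate 1) and 1 to 2 for the CoCl2 line difference (1 without Caco-2 control replicate 1 or 3, Caco-2 CoCl2 replicate 1, HT-29 control replicate 1 or HT-29 CoCl2 replicate 2 or 3).

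The replicate number was only a name here. With the replicate block, 86 of 90 values were the same in call, 3 lost it and 1 gained it: KDM4C with OD in Caco-2 (FDR = 0.0704), KDM2B and JMJD6 in the CoCl2 line difference (FDR = 0.0726 and 0.0387), and KDM4B between the controls (FDR = 0.244). No count changed by over 1.5 times with the block. With 3 libraries per group, the precision is that of the standard errors given.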
